A study of Mus musculus with 6 samples.

Results

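The 9 genes Folr1, Gldc, Amt, Gcsh, Shmt1, Shmt2, Mthfd1, Mthfd2 and Mthfd1l, which act in folate uptake and one-carbon metabolism, were followed in mouse oocytes and embryos. They were chosen by symbol, with earlier results of these data known, and all 9 were found among the 23308 gene symbols measured. The YAP-null 4-cell group held 1 library of embryos from YAP-/- females, labelled Yap1-deleted. The wild-type (WT) 4-cell group held 1 library of embryos from WT females. The YAP-null GV group held 2 libraries of Yap1-deleted oocytes at the germinal vesicle (GV) stage, the fully grown oocyte before meiotic maturation. The WT GV group held 2 libraries of WT oocytes at the same stage. Each library was made from 60 oocytes or embryos. In all groups the females were on the ICR background, 21 to 23 days old and injected with PMSG and hCG, and they were mated where embryos were wanted. The labels leave out in which cells Yap1 was deleted and which males were used, and whether the libraries of a group came from separate animals is not given either, so that p-values measure the spread between these libraries only. For the 4-cell samples the source entry reads GV oocyte. Titles and stage entries, which were followed here, name embryos.

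Folates carry one-carbon units, taken mainly from serine and glycine, into the synthesis of purines, thymidylate and methionine. Mitochondria and cytosol hold parallel sets of these enzymes, Shmt2, Mthfd2 and Mthfd1l in mitochondria and Mthfd1 and Shmt1 in the cytosol. The mitochondrial set releases formate, which Mthfd1 uses. The glycine cleavage system, also mitochondrial, splits glycine and passes its one-carbon unit to folate, and the preimplantation mouse embryo is known to take up glycine through a dedicated transporter.

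Values are FPKM, fragments per kilobase of transcript scaled to the mapped fragments of the library, so levels can be compared between genes. Read totals are not given in the files. Depth estimated from the authors' bounds around each FPKM value was 0.799 in the YAP-null 4-cell library, 0.969 in the WT 4-cell library, 0.370 and 0.446 in the YAP-null GV libraries, and 0.419 in WT GV library 2, relative to WT GV library 1. Between 9984 and 10823 genes reached 1 FPKM per library. Yap1 measured 33.3 FPKM in YAP-null and 89.7 FPKM in WT 4-cell embryos, and 10.8 and 10.0 FPKM in YAP-null against 248 and 154 FPKM in WT GV libraries. The GV difference of Yap1, -4.10 ± 0.39 on the log2(FPKM + 1) scale (SE, n = 2 libraries each), did not pass limma (adjusted p = 1.00), although it passed when any 1 of the 4 GV libraries was left out (adjusted p between 0.000129 and 0.0126). The 10 oocyte marker genes summed to 954 FPKM in YAP-null and 167 FPKM in WT 4-cell embryos, with all 10 higher in the YAP-null library, and to between 6048 and 8917 FPKM in the GV libraries. The 8 cleavage embryo markers summed to 428 and 506 FPKM in the YAP-null and WT 4-cell libraries, and 5 of the 8 were at least 2-fold lower in the YAP-null library. Pou5f1 (322 and 207 FPKM) and Sox2 (1.36 and 0.968 FPKM) were higher there. In the GV libraries these markers summed to between 162 and 300 FPKM, nearly all of it Pou5f1. Granulosa and cumulus markers, 12 genes, summed to 156 and 255 FPKM in the YAP-null and WT 4-cell libraries, of which Nr5a2 held 92.1 and 179 FPKM. In GV oocytes they summed to 41.8 and 44.6 FPKM in YAP-null and 46.5 and 49.4 FPKM in WT, with none at 0 in both libraries of a group. In the GV libraries Inha (6.12 to 15.6 FPKM), Cyp19a1 (9.51 to 13.6 FPKM) and Nr5a2 (8.30 to 15.4 FPKM) held most of that sum. Amhr2 stood at 62.0 and 74.7 FPKM in the YAP-null and WT 4-cell libraries, and Fshr was listed at 0 in both. Blood markers, 5 genes, summed to between 0.325 and 38.2 FPKM and sperm markers, 4 genes, to between 0 and 10.2 FPKM over the 6 libraries, with Prm1, Tnp1 and Tnp2 listed at 0 in all of them.

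The RefSeq promoter table (GRCm38.p6) held 8 of the 9 genes, all but Folr1. Promoters of 300 bases, 250 before and 50 after the annotated start, were read for the core of the TEAD site, GGAATG, since TEAD factors are the DNA-binding partners of YAP. Both strands were searched. Gldc and Mthfd1 each held 1 match, 73 and 123 bases before the start, and the other 6 promoters held none, against 14.7% of all 32851 promoters of this length with a match. The E-box CACGTG, in 7.15% of all promoters, and the ATF4 element TGATGNAA, in 3.97%, were in none of the 8. The promoters of 5 genes are shown, 5′ to 3′ on the gene's strand, with the TEAD core in capitals: Gldc (chr19:30175392-30175691, minus strand) and Mthfd1 (chr12:76254982-76255281, plus strand), whose transcripts were about 2-fold lower in the YAP-null 4-cell library, Amt (chr9:108296655-108296954, plus strand), which was lower still and held no match, and Mthfd2 (chr6:83317555-83317854, minus strand) and Shmt2 (chr10:127522395-127522694, minus strand), whose transcripts were over 2-fold higher there. Gcsh, also lower there, held no match either. A match is a string of letters and was not tested for binding.
Gldc: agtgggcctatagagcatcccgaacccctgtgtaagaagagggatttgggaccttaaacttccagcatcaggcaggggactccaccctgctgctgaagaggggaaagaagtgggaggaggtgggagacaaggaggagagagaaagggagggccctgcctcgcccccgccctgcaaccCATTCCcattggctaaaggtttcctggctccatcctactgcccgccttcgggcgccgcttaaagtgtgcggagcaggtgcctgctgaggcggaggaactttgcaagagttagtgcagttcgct
Amt: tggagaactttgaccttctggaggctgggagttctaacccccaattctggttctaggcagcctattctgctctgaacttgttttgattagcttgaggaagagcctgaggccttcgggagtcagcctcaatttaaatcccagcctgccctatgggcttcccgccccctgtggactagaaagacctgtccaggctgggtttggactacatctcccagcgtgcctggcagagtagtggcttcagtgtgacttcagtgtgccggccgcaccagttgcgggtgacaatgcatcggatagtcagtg
Mthfd1: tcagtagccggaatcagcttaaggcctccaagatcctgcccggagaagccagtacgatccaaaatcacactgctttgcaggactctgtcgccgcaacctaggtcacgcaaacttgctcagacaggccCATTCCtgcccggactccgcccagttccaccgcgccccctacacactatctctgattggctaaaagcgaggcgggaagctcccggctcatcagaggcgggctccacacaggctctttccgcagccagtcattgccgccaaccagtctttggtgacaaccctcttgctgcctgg
Mthfd2: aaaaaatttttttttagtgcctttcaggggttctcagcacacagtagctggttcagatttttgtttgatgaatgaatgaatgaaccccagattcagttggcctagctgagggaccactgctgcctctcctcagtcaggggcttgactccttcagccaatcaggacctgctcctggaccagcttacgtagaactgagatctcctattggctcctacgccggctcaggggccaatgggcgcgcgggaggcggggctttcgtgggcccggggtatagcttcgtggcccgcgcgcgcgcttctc
Shmt2: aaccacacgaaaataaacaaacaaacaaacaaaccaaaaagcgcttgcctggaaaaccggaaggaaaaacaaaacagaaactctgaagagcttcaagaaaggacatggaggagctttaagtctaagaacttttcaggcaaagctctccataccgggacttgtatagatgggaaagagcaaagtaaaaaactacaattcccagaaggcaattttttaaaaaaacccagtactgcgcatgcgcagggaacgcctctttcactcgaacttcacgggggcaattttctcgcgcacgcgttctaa

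The first comparison set the 4-cell stage against the GV oocyte. Between these stages the embryo's own genome becomes active and stored oocyte transcripts are degraded. Folate receptor, glycine cleavage and cytosolic serine hydroxymethyltransferase transcripts rose by more than 10-fold, while the mitochondrial dehydrogenase and formate transcripts Mthfd2 and Mthfd1l fell. In limma with genotype as a term, on log2(FPKM + 1) over all 6 libraries, 5 of the 9 genes were higher (Folr1, Gldc, Amt, Gcsh and Shmt1), 2 were lower and 2 (Shmt2 and Mthfd1) did not pass an adjusted p of 0.05. Of 11451 genes tested, 28.2% were higher and 27.8% lower. The median stage difference was 4.28 on the log2 scale over the 9 genes and -0.10 over all genes. It was -0.12 over the 41 other genes of the pathway that were tested.

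**Figure D1:**
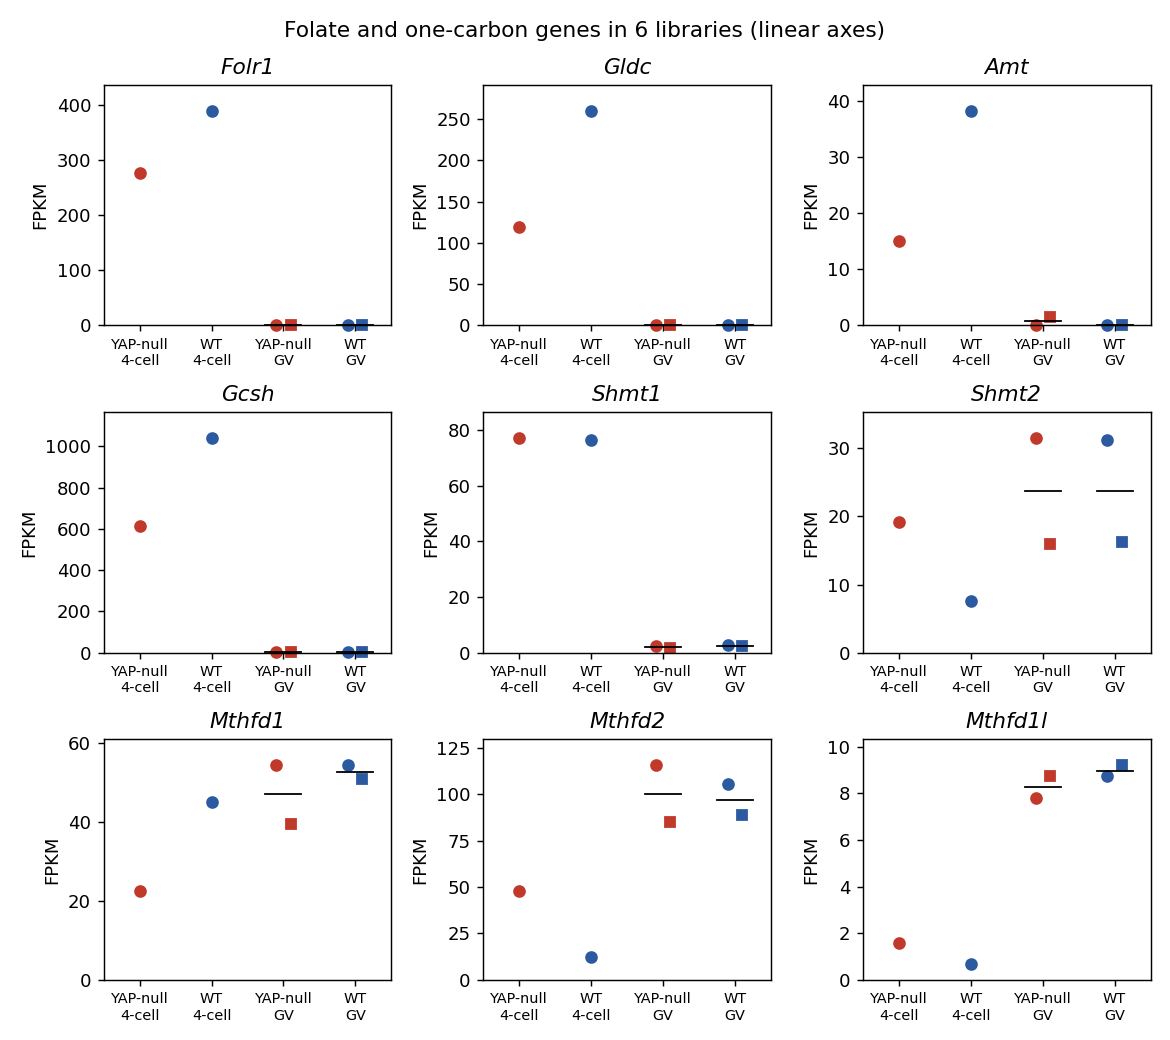
FPKM of the 9 genes in each library on linear axes that start at 0, with the YAP-null (red) and WT (blue) groups of the 4-cell and GV stages from left to right; circles and squares are GV libraries 1 and 2 and black lines are GV group means. The 5 genes in the panels Folr1 to Shmt1 sit at or below 2.71 FPKM in every GV library and at 15.1 FPKM or above in both 4-cell libraries, whereas Mthfd2 and Mthfd1l are higher in every GV library than in either 4-cell library.

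Folr1 encodes folate receptor alpha, a membrane-anchored protein that brings folate into the cell by endocytosis (chromosome 7, 109006845 to 109019302 in mm9, as are all gene positions here). It measured 276 FPKM in YAP-null and 390.2 FPKM in WT 4-cell embryos, against a listed 0 in both YAP-null GV libraries and 0.270 and 0.240 FPKM in WT GV libraries 1 and 2. The stages did not overlap, and the stage difference was 8.20 ± 0.30 on the log2(FPKM + 1) scale (SE, adjusted p = 0.000121 in limma). The receptor transcript was thus near the limit of measurement in oocytes, and in the WT 4-cell library it was the second most abundant of the 9.

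The glycine cleavage system is built of the P, T, H and L proteins. Gldc, the decarboxylating P protein (chromosome 19, 30172931 to 30249931), measured 119 FPKM in YAP-null and 260.1 FPKM in WT 4-cell embryos, against 0.271 and 0.213 FPKM in YAP-null and 0.568 and 0.227 FPKM in WT GV libraries. Amt, the T protein that hands the one-carbon unit to folate (chromosome 9, 108199253 to 108203928), measured 15.1 FPKM in YAP-null and 38.3 FPKM in WT 4-cell embryos, against 0 and 1.55 FPKM in YAP-null and 0.0887 and 0 FPKM in WT GV libraries. Gcsh, the lipoylated H protein that carries the intermediate (chromosome 8, 119505728 to 119517349), was the most abundant of the 9 genes at the 4-cell stage. It reached 615 FPKM in YAP-null and 1041 FPKM in WT 4-cell embryos, against 2.51 and 0.874 FPKM in YAP-null and 2.55 and 2.34 FPKM in WT GV libraries. For all 3 genes both 4-cell libraries stood above all 4 GV libraries, with stage differences of 7.07 ± 0.36 (Gldc), 4.28 ± 0.57 (Amt) and 8.07 ± 0.37 (Gcsh) on the log2 scale (SE, adjusted p at or below 0.00139 in limma). Dld, the L protein that this system shares with other mitochondrial dehydrogenase complexes, moved the other way: it measured 12.4 FPKM in YAP-null and 15.3 FPKM in WT 4-cell embryos, against 83.6 and 78.4 FPKM in YAP-null and 63.3 and 78.9 FPKM in WT GV libraries, a stage difference of -2.37 ± 0.32 (adjusted p = 0.00142). The ratio of Gcsh to Dld was 49.5 in the YAP-null and 68.0 in the WT 4-cell library, and at most 0.0402 in the GV libraries.

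The serine hydroxymethyltransferases split serine into glycine and a folate-bound one-carbon unit. Shmt1 was the lower of the pair in every GV library and the higher in both 4-cell libraries. Shmt1, the cytosolic enzyme (chromosome 11, 60602399 to 60624767), measured 77.2 FPKM in YAP-null and 76.3 FPKM in WT 4-cell embryos, against 2.41 and 1.49 FPKM in YAP-null and 2.71 and 2.31 FPKM in WT GV libraries. Its stage difference was 4.61 ± 0.32 (adjusted p = 0.000201 in limma). Shmt2, the mitochondrial enzyme (chromosome 10, 126954179 to 126959500), measured 19.2 FPKM in YAP-null and 7.61 FPKM in WT 4-cell embryos, against 31.5 and 16.0 FPKM in YAP-null and 31.2 and 16.3 FPKM in WT GV libraries. The GV libraries numbered 1 held about 2 times as much Shmt2 as those numbered 2 in both genotypes, the YAP-null 4-cell value lay within the GV range and the WT 4-cell value lay below it. The stage difference of Shmt2, -0.83 ± 0.49, did not pass (adjusted p = 0.192). The ratio of Shmt1 to Shmt2 was 4.01 in the YAP-null and 10.0 in the WT 4-cell library, and 0.0764 to 0.142 in the GV libraries.

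Of the enzymes that interconvert the folate one-carbon forms, the mitochondrial pair fell and the cytosolic one did not pass. Mthfd2, the mitochondrial dehydrogenase and cyclohydrolase (chromosome 6, 83255698 to 83267598), measured 47.7 FPKM in YAP-null and 12.2 FPKM in WT 4-cell embryos, against 116 and 85.1 FPKM in YAP-null and 106 and 88.7 FPKM in WT GV libraries. Mthfd1l, the mitochondrial synthetase that frees formate (chromosome 10, 6179460 to 6373466), measured 1.59 FPKM in YAP-null and 0.670 FPKM in WT 4-cell embryos, against 7.80 and 8.73 FPKM in YAP-null and 8.74 and 9.21 FPKM in WT GV libraries. Every GV library stood above both 4-cell libraries for these 2 genes, with stage differences of -1.97 ± 0.49 (adjusted p = 0.0150) and -2.21 ± 0.33 (adjusted p = 0.00209 in limma). The Mthfd2 call rested on the WT 4-cell library: without it the difference was -1.04 and the adjusted p 0.114, and without the filter on low values the adjusted p was 0.0761. Mthfd1, the trifunctional cytosolic enzyme (chromosome 12, 77356219 to 77420807), measured 22.4 FPKM in YAP-null and 44.9 FPKM in WT 4-cell embryos, against 54.4 and 39.5 FPKM in YAP-null and 54.4 and 51.0 FPKM in WT GV libraries. Its WT 4-cell value lay within the GV range and its YAP-null 4-cell value below it, and the stage difference of -0.62 ± 0.35 did not pass (adjusted p = 0.173).

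Set side by side, the order of the 9 genes was turned over between the stages. In the WT 4-cell library the order from high to low was Gcsh, Folr1, Gldc, Shmt1, Mthfd1, Amt, Mthfd2, Shmt2 and Mthfd1l. In the YAP-null 4-cell library the first 4 and the last kept their places, followed after Shmt1 by Mthfd2, Mthfd1, Shmt2 and Amt. There the authors' bounds of Shmt2 (17.0 to 21.5 FPKM) overlapped those of both Mthfd1 (19.7 to 24.5 FPKM) and Amt (11.1 to 18.1 FPKM), so these neighbours were not apart within that library. In all 4 GV libraries Mthfd2 stood first, then Mthfd1, Shmt2 and Mthfd1l. Shmt1 and Gcsh overlapped each other across the GV libraries below these. Gldc, Amt and Folr1 overlapped at 1.55 FPKM or less, and in YAP-null GV library 2 Amt stood above Gcsh and Shmt1.

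Within each genotype the stage difference kept its sign for all 9 genes. These contrasts come from a limma fit of 4 group means, in which the 4-cell groups hold 1 library each, the spread comes from the GV libraries and a 4-cell library is assumed to vary as they do. It was 8.12 in YAP-null and 8.28 in WT for Folr1, and 7.91 in YAP-null and 8.24 in WT for Gcsh on the log2 scale. For Gldc it was 6.59 in YAP-null and 7.56 in WT, and for Amt 3.33 in YAP-null and 5.23 in WT. The difference of Mthfd2 was -1.04 in YAP-null (adjusted p = 0.111) and -2.89 in WT (adjusted p = 0.0145), and that of Mthfd1l was -1.84 in YAP-null and -2.58 in WT, both called. Shmt2 differed by -0.22 in YAP-null and -1.45 in WT, and Mthfd1 by -1.01 in YAP-null and -0.22 in WT, none of which passed. The difference between genotypes in the stage difference, tested in the same fit after the data were seen, passed for 0 of the 9 genes, against 0.157% of 11451 genes. For Mthfd2 it was 1.85 ± 0.48 (SE, YAP-null minus WT, unadjusted p = 0.0263, adjusted p = 0.424 in limma), the only one of the 9 with an unadjusted p under 0.05. It was -1.90 ± 0.95 for Amt and -0.96 ± 0.46 for Gldc (adjusted p = 0.644 and 0.632).

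**Figure D2:**
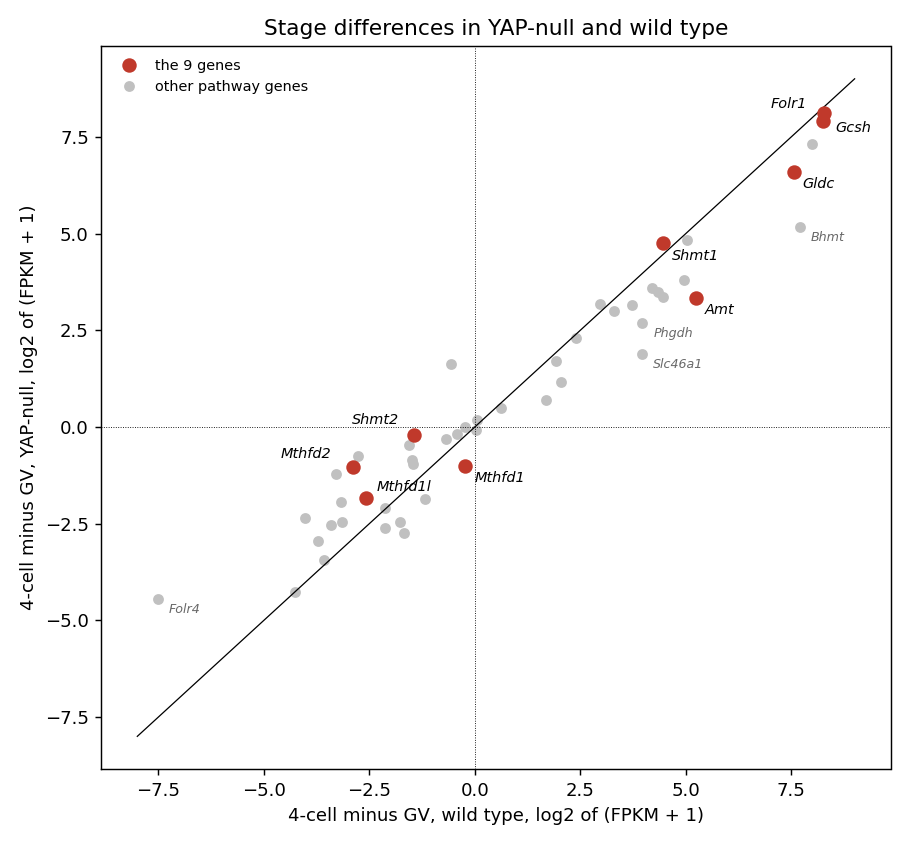
Difference between the 4-cell and GV stages on the log2(FPKM + 1) scale in YAP-null (vertical axis) and wild type (horizontal axis) for the 9 genes (red) and the other pathway genes tested (grey); the diagonal marks equal differences. Gldc (6.59 and 7.56) and Amt (3.33 and 5.23) lie below the diagonal at the top right, and Mthfd2 (-1.04 and -2.89) lies above it at the lower left.

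The second comparison set the YAP-null 4-cell library against the WT 4-cell library, the stage at which the series, by its title, asks whether oocyte YAP activates the embryonic genome. The glycine cleavage transcripts Gldc, Amt and Gcsh were lower in the YAP-null library and the mitochondrial Mthfd2 and Shmt2 were higher. Of the 9 genes, 2 were at least 2-fold lower on the log2(FPKM + 1) scale (Gldc and Amt) and 2 at least 2-fold higher (Mthfd2 and Shmt2). Over the 10854 genes compared, 9.97% were lower by this measure and 17.7% higher. The median difference was -0.50 over the 9 genes and 0.05 over all genes. There is no replicate check at this stage and no test was made. In pooled embryos, fewer embryos with a transcript and less transcript per embryo cannot be told apart.

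In the glycine cleavage system the YAP-null library held 45.7% of the WT level for Gldc, 39.4% for Amt and 59.0% for Gcsh, with log2 differences of -1.12, -1.29 and -0.76. The authors' bounds of Amt, 11.1 to 18.1 FPKM for YAP-null and 30.4 to 38.6 FPKM for WT, did not overlap. Dld, the L protein, was at 81.0% of WT (-0.28), and its bounds overlapped (10.1 to 14.7 FPKM for YAP-null and 12.8 to 17.0 FPKM for WT). The bounds belong to 1 library each and do not measure the spread between embryo samples, and the deposited values of Gldc (WT) and Gcsh (both) lie outside their own bounds. Folr1 was at 70.8% of WT (-0.50), with bounds of 263 to 291 FPKM for YAP-null and 379 to 408 FPKM for WT. Shmt1 stood at 101% of WT, with overlapping bounds, and turned to a log2 difference of -0.19 with median-ratio scaling.

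The mitochondrial folate enzymes stood on the other side. Mthfd2 was 3.90-fold higher in the YAP-null library (log2 difference 1.88), with bounds of 40.8 to 50.3 FPKM for YAP-null and 9.93 to 14.2 FPKM for WT. Shmt2 was 2.53-fold higher (1.23) and Mthfd1l 2.38-fold higher, though at under 2 FPKM, where the pseudocount reduces the log2 difference to 0.63. The bounds of both genes were apart. The cytosolic Mthfd1 was at 50.0% of WT, a log2 difference of -0.97, with bounds of 19.7 to 24.5 FPKM for YAP-null and 40.6 to 47.2 FPKM for WT.

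The ratios between the cytosolic and mitochondrial enzymes do not change with a factor applied to a whole library. The ratio of Mthfd1 to Mthfd2 was 0.471 in the YAP-null and 3.68 in the WT 4-cell library, and 0.469 and 0.464 in YAP-null and 0.514 and 0.575 in WT GV libraries. For this pair the YAP-null 4-cell library thus stood at the oocyte ratio although both transcripts were below their levels in YAP-null oocytes. The other pair did not show this: Shmt1 to Shmt2 was 4.01 in the YAP-null and 10.0 in the WT 4-cell library. In the GV libraries that ratio was 0.0764 to 0.142. Gldc and Amt kept a like ratio to each other, 7.88 in the YAP-null and 6.80 in the WT 4-cell library, and the ratio of Gcsh to Gldc was 5.17 in the YAP-null and 4.00 in the WT 4-cell library.

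**Figure D3:**
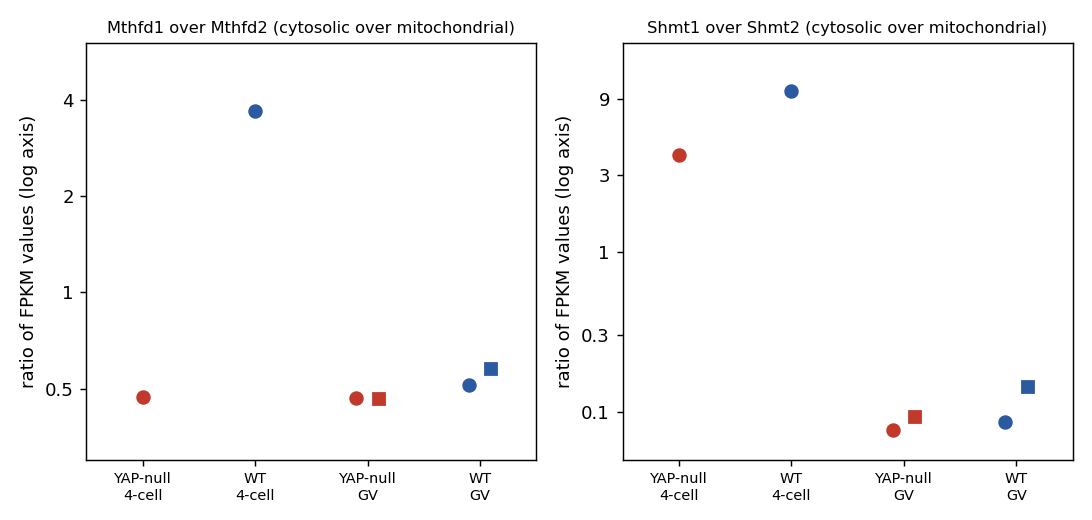
Ratio of the FPKM of a cytosolic to a mitochondrial enzyme in each library on log axes, Mthfd1 over Mthfd2 on the left and Shmt1 over Shmt2 on the right, for YAP-null (red) and WT (blue) at the 4-cell and GV stages; circles and squares are GV libraries 1 and 2. For Mthfd1 over Mthfd2 the YAP-null 4-cell library (0.471) lies with the GV libraries and the WT 4-cell library stands at 3.68. For Shmt1 over Shmt2 the YAP-null (4.01) and WT (10.0) 4-cell libraries both lie above all GV libraries.

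The differences at the 4-cell stage can be set beside the gap between GV replicates of the same genotype. For Mthfd2 that gap was -0.44 in YAP-null and -0.25 in WT (library 2 minus 1, log2 scale), against a 4-cell genotype difference of 1.88. For Mthfd1 it was -0.45 in YAP-null and -0.09 in WT, against -0.97. For Shmt2 the gap was -0.94 in YAP-null and -0.90 in WT, against a 4-cell difference of 1.23. For Gcsh it was -0.90 in YAP-null, larger in size than its 4-cell difference of -0.76, and -0.09 in WT, smaller than it. For Amt, at 0 and 1.55 FPKM in YAP-null GV libraries 1 and 2, the gap was 1.35, larger in size than its 4-cell difference of -1.29. In WT the Amt gap was -0.12, from 0.0887 and 0 FPKM. Folr1 and Gldc were too low in oocytes for such a comparison, since the pseudocount compresses differences under 1 FPKM. Of the genes averaging 1 FPKM or more in the pair of libraries, 26.9% of 10431 were at least 2-fold apart between the YAP-null and 23.3% of 10469 between the WT GV libraries. How far embryo libraries of 1 genotype differ was not measured.

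**Figure D4:**
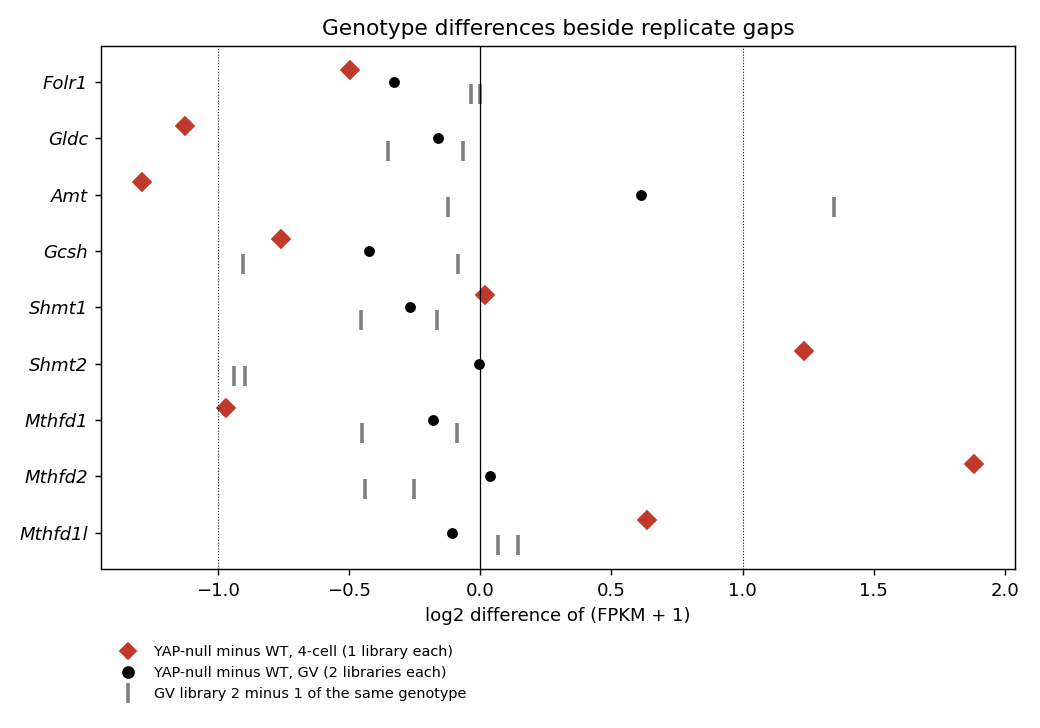
Log2(FPKM + 1) differences of the 9 genes: YAP-null minus WT at the 4-cell stage (red diamonds, 1 library each), YAP-null minus WT in GV oocytes (black circles, 2 libraries each) and GV library 2 minus 1 of the same genotype (grey bars); dotted lines mark 2-fold. Mthfd2 (1.88) and Shmt2 (1.23) lie past the upper line and Gldc (-1.12) and Amt (-1.29) past the lower one, while all GV genotype differences lie within the lines. The YAP-null replicate gap of Amt (1.35) lies past the upper line.

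Several measures moved with these differences, and their part in them was not tested. Oocyte markers summed to 954 FPKM in YAP-null and 167 FPKM in WT 4-cell embryos, with 9 of 10 at least 2-fold higher. Of the 3180 genes called lower at the 4-cell stage than in oocytes, 2192 had a mean of at least 1 FPKM over both 4-cell libraries. Of these, 853 were at least 2-fold higher in the YAP-null library and 104 at least 2-fold lower, with a median difference of 0.70. A gene can meet this filter through 1 library alone, as Folr4 did (7.41 FPKM in YAP-null and 0.0930 FPKM in WT), which can raise the share that is 2-fold apart. Of the genes called higher at the 4-cell stage, 355 of 3228 were at least 2-fold lower in the YAP-null library, with a median of -0.22. The 5 rising genes described here had a median of -0.76, and the 2 falling ones lay at 0.63 (Mthfd1l) and 1.88 (Mthfd2). Scaling shifted all values: the median of all genes was 0.05 as deposited, 0.23 with libraries set to the same sum and -0.14 with median-ratio scaling. The share of higher genes among those 2-fold apart was 64.0% as deposited, and 75.6%, 50.2% and 53.1% with the same sum, median-ratio scaling and quantile normalization. Gldc lay at -0.93 and -0.89, short of 2-fold, with the same sum and with quantile normalization, and Mthfd1 lay past 2-fold at -1.17 with median-ratio scaling. Gcsh and Folr1 shrank to -0.10 and -0.13 with quantile normalization. With the 3 scalings Mthfd2 stayed between 1.69 and 2.07 and Amt between -1.48 and -1.10.

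The third comparison asked whether the oocyte itself already differs between genotypes. None of the 9 genes passed the test in GV oocytes. Only 6 of them reached a mean of 1 FPKM in oocytes and were tested (Gcsh, Shmt1, Shmt2, Mthfd1, Mthfd2 and Mthfd1l), and 0 passed, with 0 at an unadjusted p under 0.05. Of all 10462 genes tested 0% passed, and 22 had an unadjusted p under 0.05. The log2 differences were 0.04 ± 0.36 for Mthfd2, -0.01 ± 0.53 for Shmt2, -0.18 ± 0.35 for Mthfd1, -0.27 ± 0.37 for Shmt1 and -0.42 ± 0.45 for Gcsh (SE, n = 2 libraries each, adjusted p = 1.00 in limma for each). The YAP-null values of Mthfd1l both lay below its WT values, with a difference of -0.11 ± 0.35, and the groups of the other 5 tested genes overlapped. Of all genes tested, 5.68% lay lower and 5.1% higher in YAP-null without overlap. The median difference was -0.14 over the 6 genes and 0.00 over all genes. Folr1, listed at 0 in both YAP-null libraries, and Gldc and Amt were below the filter. The same fit did not pass Yap1 itself, so a missing call in GV oocytes does not show that a gene was level.

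The other genes of the pathway were 47 symbols for folate transport, folate interconversion, the methionine cycle, lipoylation, serine synthesis and glycine and betaine metabolism. Of the 41 that reached a mean of 1 FPKM over the 6 libraries, 15 were higher and 15 lower at the 4-cell stage and 11 did not pass in limma, beside 28.2% and 27.8% of all genes. Psat1, Bhmt, Sardh, Dmgdh and Slc46a1 met that filter only through their 4-cell values. They stayed called without it, when 25 of the pathway genes passed. Without the WT 4-cell library 19 passed in place of 30. In serine synthesis 3 of 3 genes were called higher, though within YAP-null Psat1 alone was called (adjusted p = 0.0802 for Phgdh and 0.117 for Psph). Psat1, the aminotransferase of this route, measured 181 FPKM in YAP-null and 334 FPKM in WT 4-cell embryos and 0.128 to 0.513 FPKM in the GV libraries. Phgdh, which takes the first step from glycolysis, measured 121 FPKM in YAP-null and 333 FPKM in WT 4-cell embryos and 12.4 to 32.8 FPKM in the GV libraries, though its call ended without the WT 4-cell library (adjusted p = 0.0748). Psph, the phosphatase of the last step, named after its values were seen, reached 5.22 FPKM in YAP-null and 10.4 FPKM in WT 4-cell embryos.

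The H protein carries its intermediate on a lipoic acid arm. Lias, the lipoyl synthase, rose to 28.8 FPKM in YAP-null and 47.4 FPKM in WT 4-cell embryos, against 1.03 to 2.37 FPKM in GV oocytes. The lipoyltransferases Lipt1 and Lipt2 fell, by 3.33 and 2.55 on the log2 scale, the second without a call when the WT 4-cell library was left out (adjusted p = 0.148).

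Uptake genes moved in both directions. Slc19a1, the reduced folate carrier, measured 3.22 FPKM in YAP-null and 2.28 FPKM in WT 4-cell embryos, against 4.67 to 10.1 FPKM in GV oocytes, and its fall of 1.17 passed narrowly (adjusted p = 0.0471). Of 16 alternatives, 4 kept the call. Slc46a1, the proton-coupled folate transporter, rose to 2.73 FPKM in YAP-null and 19.3 FPKM in WT 4-cell embryos, against at most 0.303 FPKM in GV oocytes, and its bounds at the 4-cell stage were apart. Folr4, which the RefSeq table lists under the name Izumo1r, belongs to the folate receptor family by sequence but serves as the egg's receptor for sperm. It measured 7.41 FPKM in YAP-null and 0.0930 FPKM in WT 4-cell embryos, against 170 to 201 FPKM in GV oocytes. Folr4 thus fell at the 4-cell stage while Folr1 rose. Folr2, a further folate receptor, named after its values were seen, was listed at 0 in all 4 GV libraries and measured 2.86 FPKM in YAP-null and 1.52 FPKM in WT 4-cell embryos, below the filter of the stage test. Slc6a9, the glycine transporter GLYT1, fell to 25.9 FPKM in YAP-null and 15.4 FPKM in WT 4-cell embryos, against 132 to 165 FPKM in GV oocytes. The proline and betaine transporter gene Slc6a20a and its paralog Slc6a20b fell to at most 0.113 FPKM in either 4-cell library, the second without a call when the WT 4-cell library was left out (adjusted p = 0.0550).

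Among enzymes that use the one-carbon units, Gart of purine synthesis rose by 3.44 ± 0.45, although without the WT 4-cell library its adjusted p was 0.0519, and Tyms, which makes thymidylate, fell by 1.52 ± 0.36, without a call when either 4-cell library was left out (adjusted p = 0.101 and 0.0525 without the YAP-null and the WT library). In the methionine cycle Mat2a, the S-adenosylmethionine synthase of most tissues, rose by 3.91 ± 0.39 and Mat1a, the synthase typical of liver, fell by 2.97 ± 0.38. Bhmt, which remethylates homocysteine with betaine, rose by 6.44 ± 0.58, to 37.5 FPKM in YAP-null and 209 FPKM in WT 4-cell embryos. Dmgdh and Sardh, which release further one-carbon units from the product of Bhmt, rose by 3.92 and 4.93, and Chdh, which makes betaine from choline, fell by 3.20. Cth, of cysteine synthesis, rose by 4.38.

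Between the 4-cell libraries, 7 of 38 other pathway genes measured were at least 2-fold lower in the YAP-null library and 6 were higher by as much, against 9.97% and 17.7% of all genes. The lower ones were Bhmt (log2 difference -2.45), Slc46a1 (-2.44), Phgdh (-1.45), the homocysteine-forming Ahcy (-1.21), the purine enzyme Atic (-1.12), Mat2a (-1.08) and Cth (-1.01). The deposited values of Bhmt (WT), Mat2a (WT) and Phgdh (both) lie outside their own bounds. The higher ones included Folr4 (2.94) and Mat2b, the regulatory partner of Mat2a (1.02). Mat2b had a gap of 1.79 and 1.38 between GV replicates in YAP-null and WT, wider than its 4-cell difference. The other 4 were Chdh and, named after their values were seen, Mthfs, Cbs and Aldh7a1, all of which averaged under 5 FPKM over the 4-cell libraries. Of these 4, Aldh7a1 alone had GV gaps (2.89 and 2.69) wider than its 4-cell difference of 1.74. Among the lower genes, Ahcy had gaps of -1.06 in YAP-null and -1.29 in WT, near its 4-cell difference. Those of Phgdh were -0.62 and -1.34 and those of Atic -1.01 and -0.53. Mat2a had -0.20 and -0.49, and Cth -0.14 and -1.01. Bhmt and Slc46a1 were too low in oocytes for such a comparison. Of the 15 pathway genes that were called higher at the 4-cell stage, 13 lay below 0 in this difference, with a median of -0.79, and 13 to 15 did so with the other scalings. Of all genes called higher at that stage 2090 of 3228 (64.7%) lay below 0, with a median of -0.22. With the same sum, median-ratio scaling and quantile normalization 52.6%, 74.9% and 67.8% of them did so. In GV oocytes 33 of the 47 were tested and 0 passed, with 0 at an unadjusted p under 0.05.

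Patterns most like those of the 9 genes were sought among 8046 other genes averaging 5 FPKM or more, by the root mean square distance of log2(FPKM + 1) values centred on each gene over the 6 libraries. Folr1 was nearest to Ctsc (0.18), Npl and Trim43a, and Gcsh was nearest to Folr1 itself (0.28), the closest pair among the 9 genes. For Gldc the genes named are Fbxo15 (0.13) and Pramel6, and for Amt Myef2 (0.32), Caskin1 and Ubtf. Shmt1 was nearest to Hormad1 (0.16), C1qtnf4 and Mfsd12. On the other side, Mthfd2 was nearest to Herpud2 (0.07), Blcap and Usp28, Shmt2 to Bod1 (0.06), Wdr85 and Ppa2, Mthfd1l to Atp6v1f (0.04), Sort1 and Mea1, and Mthfd1 to Ubr7 (0.09), Szrd1 and Banf1. The distances are descriptions over 6 libraries that share 2 stages and 2 genotypes.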

How the data were processed

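Gene tables of 6 libraries were used. The authors deposited FPKM per gene, each with its lower and upper bounds, per the file headers. CASAVA 1.8, TopHat and the mm9 build are named in the submitters' processing notes. Which tool computed FPKM, on which annotation and with which strand setting, are points not given in the sources used here. A failed line (1 over all 6 tables) was dropped, and the loci of 260 symbols listed more than once were added up, giving 23308 symbols. Read totals are unknown, and relative depth came from the width of the bounds. Precision at the 4-cell stage is limited to these bounds, whose confidence level is not given.

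FPKM was compared as log2(FPKM + 1) for genes averaging 1 FPKM or more in the compared libraries. A fold on this scale understates the change of low genes. limma 3.58.1 (limma-trend, R 4.3.3) was fitted across all genes, two-sided, with Benjamini-Hochberg adjustment and a threshold of 0.05: genotype in the 4 GV libraries, and stage with genotype as a term in all 6. The 4-cell spread is then what genotype does not explain additively. An exact permutation test cannot go below 0.333 for 2 against 2 or 0.0667 for 2 against 4 libraries. The 4-cell libraries were compared by a 2-fold size rule. A fit of 4 group means gave stage within genotype and, added after the data were seen, its difference between genotypes. The fits were run on simulated data with independent noise of the same size for every gene. The gap between GV replicate numbers was not simulated, so that run does not show how the fits behave on these libraries. Promoter windows are RefSeq's (GRCm38.p6), a build other than that of the files. Shmt2 overlaps the end of Ndufa4l2 in the tables.

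The 9 genes, the gene lists and the tests were chosen with earlier results of these data known. All 9 genes were named. Of the pathway list, up to 12 genes per direction at least 2-fold apart at the 4-cell stage with a mean of at least 5 FPKM, up to 8 per direction with the largest called stage difference, and 7 genes that complete the reactions were to be named; others were named after their values were seen. The pattern search was to name 3 genes for each of the 9. Some genes under these rules are not reported here. The list had 48 symbols, of which 47 were found.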

Additional observations from a re-analysis of the deposited data

Results flagged for a closer look

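For Mthfd1l and Folr4 the difference of YAP-null minus WT had opposite signs at the 2 stages, although at the GV stage it was smaller than its SE. Both YAP-null GV libraries lay below both WT GV libraries for each gene, as they did for 5.68% of the 10462 genes tested. The YAP-null 4-cell library lay above the WT 4-cell library, by 0.63 for Mthfd1l and 2.94 for Folr4 on the log2(FPKM + 1) scale. The GV differences were -0.11 ± 0.35 and -0.14 ± 0.33 (SE, n = 2 libraries each), and neither passed limma (adjusted p = 1.00). The 4-cell minus the GV genotype difference, in a limma fit of 4 group means chosen after the data were seen, was 0.74 ± 0.39 for Mthfd1l and 3.08 ± 0.36 for Folr4 (SE, adjusted p = 0.670 and 0.227), and passed for neither.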

How the results depend on the processing

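The 5 genes called higher at the 4-cell stage (Folr1, Gldc, Amt, Gcsh, Shmt1) stayed called in every alternative run, and Mthfd1l stayed called lower. Mthfd2 lost its call without the filter on low values, in the stage comparison within YAP-null and without the WT 4-cell library, which left 1 lower gene of the 9 in each of these. Leaving out 1 library gave 5 higher genes each time, 1 to 2 lower genes and 19 to 31 other pathway genes past the threshold. At the 4-cell stage, genes at least 2-fold lower numbered 1 of the 9 with libraries set to the same sum and with quantile normalization, and the other pathway genes numbered 4 with the same sum. Genes at least 2-fold higher numbered 1 of the 9 with a pseudocount of 5 FPKM, and the other pathway genes numbered 2 with that pseudocount and 1 at a mean of at least 5 FPKM. The causes were not tested.

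In GV oocytes 0 of the 9 genes passed under any alternative run. Differences near 0 changed sign: Mthfd2 to -0.12 with the same sum and Shmt2 to 0.00019 with median-ratio scaling. Leaving out 1 library gave -0.88 to 0.028 for Gcsh, -0.48 to 0.46 for Shmt2, -0.40 to 0.046 for Mthfd1 and -0.18 to 0.26 for Mthfd2. The GV libraries share replicate numbers 1 and 2, which the labels do not tie to an animal or day. The gap between the numbers correlated across genes between genotypes (r = 0.849 over 10462 genes, which are not independent replicates). With a replicate block 0 of the 9 genes passed, with an adjusted p of 0.999 for Mthfd2 and a difference of 0.04, and 2 genes of all passed in place of 0, Yap1 (-4.10, adjusted p = 7.57e-05) and Stk32a (2.83, adjusted p = 0.0131). The number of fragments behind low values, such as Folr1, Gldc and Amt in oocytes and Mthfd1l in 4-cell embryos, limits those values.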
